A study of Arabidopsis thaliana with 9 samples.

Results

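HAM1 (AT2G45160), HAM2 (AT3G60630) and HAM3 (AT4G00150) are the 3 genes of the HAIRY MERISTEM family of GRAS transcription factors whose mRNAs are targets of miR171 in Arabidopsis. They were taken here by locus number from lists of candidate miRNA slice sites, and they account for 3 of the 1508 target loci and 13 of the 3041 lines of those lists. The lists came from nanoPARE (nano-parallel analysis of RNA ends), which captures the 5′ ends of RNA, including the 3′ fragment that is left when a miRNA guides cleavage. The study asked whether heat, under which the slicer ARGONAUTE1 gathers in cytosolic condensates, changes which transcripts miRNAs cleave.

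Whole seedlings of the wild type Col 0, 7 days old and grown on MS agar, made up all 9 libraries, and no transgene or mutant was used. Recovery seedlings were held at 37°C for 1 h and then at 22°C for 2 h, HS (heat stress) seedlings were held at 37°C for 1 h, and Control seedlings were not heated. Each group held 3 libraries that the series calls biological replicates. The sources do not say how many seedlings were pooled for one library. The lists hold no line for the shoot meristem markers WUS, CLV3 and STM or for 4 root markers. Of 5 leaf and cotyledon markers 3 are listed, each at a candidate miRNA site only, so that tissue identity was not established by them. In bulk seedlings, fewer meristem or vascular cells and less RNA per cell cannot be told apart.

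HAM proteins keep the cells of the shoot meristem undifferentiated and act there together with the stem cell regulator WUSCHEL. Their mRNAs carry, within the coding sequence, a site that pairs with miR171, and the miRNA with ARGONAUTE1 cuts the mRNA opposite guide bases 10 and 11. The relative HAM4 also acts in meristems. The miRNA itself is made from several loci, and its members fall into forms that are shifted along the same site.

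Guides are shown first because all HAM lines were named for one of them, with the seed (bases 2 to 8) in capitals.
miR171a-3p: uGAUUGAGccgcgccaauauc
miR170-3p: uGAUUGAGccgugucaauauc
miR171b-3p: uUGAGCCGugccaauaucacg
miR171c-3p: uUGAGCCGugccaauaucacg
The sequences were read from the RefSeq annotation of TAIR10.1, where miR171a-3p lies at chr3:19073521-19073541 on the plus strand. The others lie on the minus strand, miR170-3p at chr5:26411594-26411614, miR171b-3p at chr1:3961367-3961387 and miR171c-3p at chr1:22930095-22930115. MiR171a-3p and miR170-3p share the seed GAUUGAG. MiR171b-3p and miR171c-3p are identical over their 21 bases and share the seed UGAGCCG.

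The sites of the HAM mRNAs carry the contrast between these guides, and 24 bases are shown in the sense of the mRNA. Capitals mark the 2 bases opposite guide bases 11 and 10 of miR171a-3p, between which the cut falls.
HAM1: agggatattggcgCGgctcaatca
HAM2: agggatattggcgCGgctcaatca
HAM3: ggggatattggcgCGgctcaatca
These windows lie on the minus strand of TAIR10.1, at chr2:18619128-18619151 for HAM1, chr3:22411544-22411567 for HAM2 and chr4:58411-58434 for HAM3. Each gene has 1 exon in the annotation, and each site is in its coding part. The last 21 bases are the site of miR171a-3p and were the same in all 3 genes, with 0 mismatches to the guide. MiR170-3p spans the same site and differed from its exact complement at 2 bases, where a U of the guide faces a G (G:U wobble pairs). An end at this site therefore does not tell miR171a-3p from miR170-3p. MiR171b-3p paired best 3 bases further upstream, with 3 such differences, of which 1 was a U facing a G.

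In a search of 52059 annotated mRNAs from 31346 genes, an exact complement of miR171a-3p was found in 3 genes, HAM1, HAM2 and HAM3. The best match of miR171a-3p in HAM4 differed from the exact complement at 6 bases, and HAM4 was listed in no library. Counted from the base opposite guide base 10, the mRNAs of HAM1 and HAM2 were the same at 27 of the next 50 bases, those of HAM1 and HAM3 at 20 and those of HAM2 and HAM3 at 21. The first difference came after 11 bases between HAM1 and HAM2 and after 10 bases in the other pairs. All 13 HAM values were whole multiples of the value of 1 read.

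Slice sites are deposited as positions along the transcript, 1013 for HAM1, 1055 for HAM2 and 866 for HAM3 with miR171a-3p. The deposited position minus the position opposite guide base 10 in the RefSeq transcript was −302, −56 and −210 bases, so the coordinates above come from the sequence match alone. The cause of the offsets was not tested. A second position of HAM3, 863, was named for miR171b-3p. It lies 3 bases upstream of 866, and position 1073, opposite base 10 of miR171b-3p in the RefSeq transcript, lies the same distance upstream of position 1076 for miR171a-3p.

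Signal is given in RPM, the read count scaled by the total reads of the library. A site missing from a library's list was set to 0 RPM, although some reads may have been there. One read was set at the RPM value that a library held most often, which puts the depth at 3236099 to 4609739 reads in Recovery, 2938238 to 3985906 in HS and 2331769 to 3167323 in Control. Heat response genes, 8 of 12 of which were listed, marked the treatment, with a summed signal of 5.64 to 11.1 RPM in Recovery and 33.9 to 85.4 RPM in HS, against 0 to 0.349 RPM in Control. Among all lines, 126 had an adjusted p under 0.05 from the authors' pipeline, which scores each site within its own library.

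Cleavage ends at HAM1, which acts with its relatives to maintain the shoot meristem, were found in all Control libraries and in 1 heated library. The site held 0, 1.85 and 0 RPM in the Recovery libraries, 0 RPM in each HS library, and 3.43, 2.09 and 2.53 RPM in the Control libraries. The values above 0 stand for 6 reads in Recovery replicate 2 and for 8, 6 and 8 reads in Control. Neither the Recovery nor the HS values overlapped with those of Control, although Recovery replicate 2 came close to Control replicate 2. The means were 0.618 ± 1.07 RPM in Recovery and 0 RPM in HS, against 2.68 ± 0.683 RPM in Control (SD, n = 3).

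HAM2, which overlaps with HAM1 in meristem function, gave less signal in Control and was nearly absent from the lists of heated seedlings. It held 0 RPM in each Recovery library, 0, 0 and 0.326 RPM in the HS libraries, and 2.14, 1.05 and 1.26 RPM in the Control libraries. The HS value is 1 read of replicate 3, and those of Control are 5, 3 and 4 reads. All heated libraries lay below all Control libraries. The means were 0 RPM in Recovery and 0.109 ± 0.188 RPM in HS, against 1.48 ± 0.582 RPM in Control (SD, n = 3).

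HAM3, the third miR171 target of the family, had the lowest mean in Control. Its miR171a-3p site held 0, 0 and 1.08 RPM in the Recovery libraries, 0 RPM in each HS library, and 0.429, 0.698 and 1.26 RPM in the Control libraries. The values stand for 5 reads in Recovery replicate 3 and for 1, 2 and 4 reads in Control. Recovery and Control overlapped, since Recovery replicate 3 lay above 2 of the Control libraries. The means were 0.362 ± 0.626 RPM in Recovery and 0 RPM in HS, against 0.796 ± 0.426 RPM in Control (SD, n = 3).

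**Figure D1:**
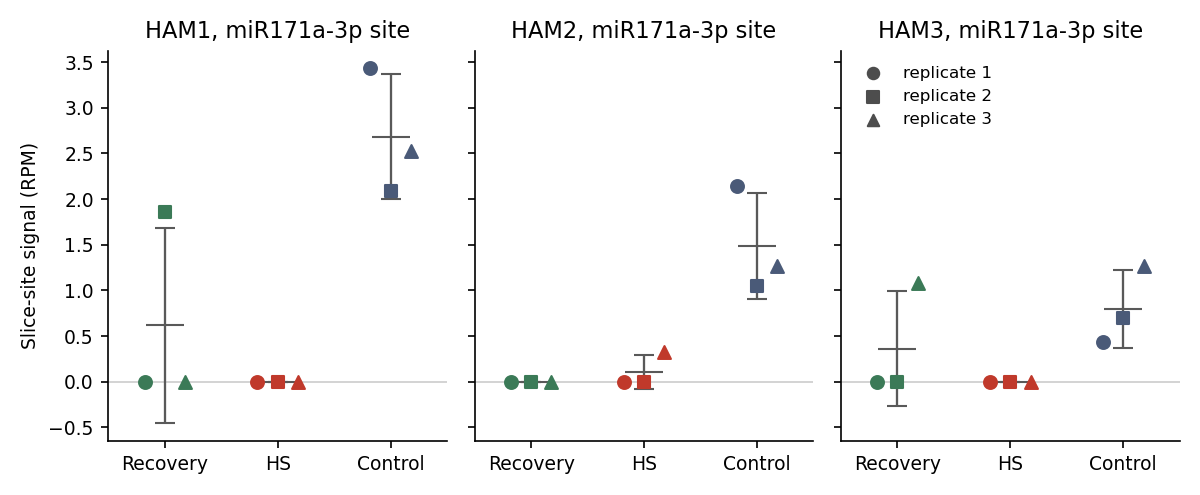
Slice-site signal in RPM (vertical axis) of HAM1, HAM2 and HAM3 in the Recovery, HS and Control libraries, with points for libraries (shape gives the replicate number), bars for the mean and lines for its SD (n = 3). HAM1 and HAM3 sit at 0 in every HS library, and the Recovery signal stands in replicate 2 for HAM1 (1.85 RPM) and in replicate 3 for HAM3 (1.08 RPM).

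Each heated library listed at most 1 HAM site, while each Control library listed all 3. Of 9 possible entries of a miR171a-3p site in a library, 2 were filled in Recovery and 1 in HS, against 9 in Control. Over all sites, the lists of a group held 946 entries in Recovery and 954 in HS, against 1141 in Control. The part of list length in the HAM entries was not tested. Summed over the genes and both HAM3 positions, the libraries held 1, 6 and 5 reads in Recovery and 0, 0 and 1 read in HS, against 14, 11 and 16 reads in Control. The depth inferred from the value of 1 read averaged 3760450 reads in Recovery and 3330790 reads in HS, against 2788740 reads in Control, and its part in the HAM values was not tested. As a share of the summed RPM of its list, the HAM signal was 0.232, 1.03 and 0.631% in Recovery and 0, 0 and 0.0945% in HS, against 2.01, 1.22 and 1.52% in Control.

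Leaf and cotyledon markers differed among themselves. Each of the 3 listed was seen at a single candidate site, with a mismatch penalty (Allen score) of 4.5 to 5.5. In each library that listed it, the site lay below its local background, at ratios of 0.0190 to 0.562. Such a site does not measure the gene as a whole. Summed over the 3 of 5 markers listed, the signal averaged 6.67 ± 5.10 RPM in Recovery and 12.7 ± 7.09 RPM in HS, against 22.6 ± 6.78 RPM in Control (SD, n = 3), and HS replicate 1 lay above Control replicate 2. In Recovery against Control, the light-harvesting gene LHCB1.3 was lower (−2.75 in log2(RPM + 1), limma adjusted p of 0.0187), while LHCB4.1 differed by −1.24 (0.275) and the photosystem I gene PSAG by 1.22 (0.101). In HS none of the 3 passed, with −1.17 for LHCB1.3, −0.73 for LHCB4.1 and 0.68 for PSAG (limma adjusted p of 0.347, 0.595 and 0.497). The root and shoot meristem markers had no line in any library, so they were not measured. The part of tissue makeup in the HAM values was not tested.

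Within Control the order of levels was HAM1, HAM2 and HAM3. A slice-site value counts ends at 1 position, so that transcript length does not enter it. HAM1 stood 1.6 to 2 times above HAM2 within the Control libraries and 2 to 8 times above HAM3. HAM2 and HAM3 were neighbours, with a ratio of HAM2 over HAM3 of 5 in replicate 1, 1.5 in replicate 2 and 1 in replicate 3, and their difference was not tested. With 1 to 8 reads per value these ratios carry a large counting error.

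HS was compared with Control to ask whether cleavage ends changed during heat. Limma called HAM1 and HAM2 lower at their miR171a-3p sites, and HAM3 did not pass the test. The filter on listed libraries favoured lower values at these sites, as described below. The difference of log2(RPM + 1) was −1.86 ± 0.41 for HAM1 and −1.15 ± 0.32 for HAM2 (SE), with limma adjusted p of 0.00793 and 0.0427 over 322 sites. For HAM3 it was −0.82 ± 0.34 (SE, limma adjusted p of 0.236), with a 95% interval of −1.53 to −0.10 before adjustment. The scale understates changes of low sites, and where all HS libraries stand at 0 the difference depends on the added 1 RPM and sets no bound.

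Of the 322 sites, limma called 4.97%, 1.55% as lower and 3.42% as higher in HS, while 2 of the 3 HAM sites were called lower and 0 higher. HS values lay below all Control values at all 3 HAM sites and at 10.2% of the sites tested, and above them at 0 HAM sites and at 6.21% of the sites tested. The HAM sites entered the fit through Control, where all 3 libraries listed them, with 1 heated library each. The filter thus favoured a lower value in HS, and nothing is read from these shares or from the HAM calls. The median over all sites was −0.13 on the log2 scale. Two-sided exact permutation gave p = 0.1 at each HAM site, the smallest value that 3 against 3 libraries allow. Without 1 library, HAM1 kept its call in 7 of 9 fits and lost it without HS replicate 1 (limma adjusted p of 0.0545) or HS replicate 3 (0.0614). HAM2 lost its call in all 9 such fits, with limma adjusted p of 0.0540 to 0.131, and in 6 of the 9 other alternatives (0.0375 to 0.155 over the 9), among them the fit with no filter (0.0892). HAM1 also missed with every library scaled to 1 sum (0.0526) and with unlisted sites at 1 read (0.0788). An added 0.25 RPM in place of 1 RPM gave differences of −3.53 for HAM1, −2.34 for HAM2 and −1.99 for HAM3.

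Recovery was compared with the same Control libraries to ask whether the ends returned within 2 h. Limma called HAM2 lower in Recovery, HAM1 missed the threshold and HAM3 lay within the spread. The filter favoured lower values here too. The difference of log2(RPM + 1) was −1.29 ± 0.32 for HAM2, −1.36 ± 0.41 for HAM1 and −0.47 ± 0.34 for HAM3 (SE), with limma adjusted p of 0.0313, 0.0758 and 0.424. The 95% interval before adjustment was −2.21 to −0.51 for HAM1 and −1.18 to 0.25 for HAM3. HAM1 thus had a difference of about the size of that of HAM2, with a larger standard error.

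Limma called 2.8% of the 322 sites in Recovery 2.17% as lower and 0.621% as higher, while 1 of the 3 HAM sites was called lower and 0 higher. Recovery values lay below all Control values at HAM1 and HAM2 and at 15.8% of the sites tested, and above them at 0 HAM sites and at 7.14% of the sites tested. Nothing is read from these shares or from the HAM calls either, for the same reason. The median over all sites was −0.15 on the log2 scale. Two-sided exact permutation of 3 against 3 libraries gave p = 0.1 for HAM1 and HAM2 and p = 0.3 for HAM3. Without Recovery replicate 2, HAM1 changed by −1.86 and passed (limma adjusted p of 0.0157). HAM2 passed in 2 of the 9 fits without 1 library, those without HS replicate 2 or HS replicate 3, with limma adjusted p of 0.0265 to 0.0917 over the 9. It missed with no filter (0.0648) and with every library scaled to 1 sum (0.0701). An added 0.25 RPM gave differences of −2.50 for HAM1, −2.74 for HAM2 and −1.18 for HAM3.

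**Figure D2:**
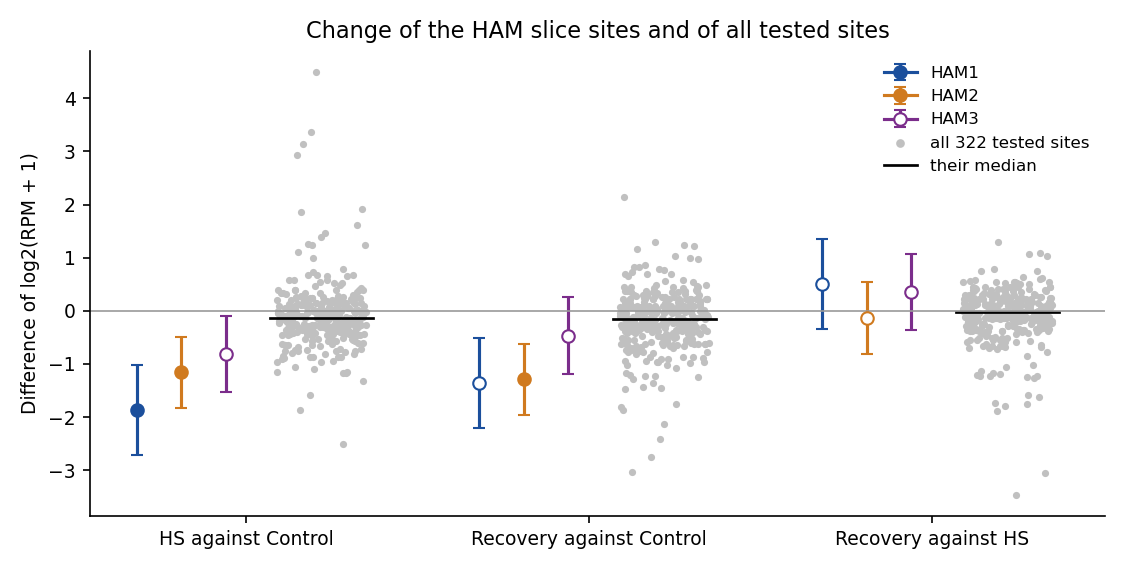
Difference of log2(RPM + 1) (vertical axis) for HAM1, HAM2 and HAM3 with 95% intervals before adjustment, beside all 322 tested sites (grey) and their median (black line), for 3 comparisons. Filled circles mark limma adjusted p under 0.05, which HAM1 and HAM2 reached for HS against Control and HAM2 for Recovery against Control.

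Between Recovery and HS, 0 of the 3 HAM sites was called by limma, against 0.932% of the 322 sites, all lower in Recovery, and 0 of the 3 had an unadjusted p under 0.05, against 38 of the 322. The groups overlapped at each HAM site, whereas Recovery lay below HS at 7.45% of the sites tested and above it at 5.59%. The difference of log2(RPM + 1) was 0.50 ± 0.41 for HAM1, −0.14 ± 0.32 for HAM2 and 0.35 ± 0.34 for HAM3 (SE), with limma adjusted p of 0.671, 0.932 and 0.750. The 95% intervals before adjustment ran from −0.34 to 1.35, from −0.80 to 0.53 and from −0.36 to 1.07, so that changes within these ranges are not excluded. The positive differences of HAM1 and HAM3 came from 1 Recovery library each, replicate 2 for HAM1 and replicate 3 for HAM3. Without that library each difference was 0.

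Whether the genes changed by different amounts was asked within libraries, for 3 pairs of genes in each of the 3 comparisons. In HS against Control the change of HAM1 was 0.71 further down than that of HAM2 and 1.05 further down than that of HAM3 on the log2 scale (differences of −0.71 and −1.05). For both, two-sided exact permutation gave p = 0.1, the smallest that 3 against 3 libraries allow. HAM2 and HAM3 differed in their change by −0.33 (exact permutation p = 0.7). In Recovery against Control the differences were −0.07 between HAM1 and HAM2, −0.89 between HAM1 and HAM3 and −0.82 between HAM2 and HAM3, with exact permutation p of 1, 0.4 and 0.3. None of the 9 could pass 0.05 in this design, and a gene with more signal in Control has further to fall.

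Local signal around the HAM cut sites was low. The deposited fold, slice-site RPM plus 1 over local background RPM plus 1, was 1.33 to 4.43 at the 12 miR171a-3p lines, with a median of 2.12, against a median of 0.806 over all lines outside the HAM genes. Solved for the background, 9 of these 12 lines had none. The others had a background of 2 reads for HAM1 in Recovery replicate 2, 1 read for HAM3 in Recovery replicate 3 and 1 read for HAM2 in Control replicate 1. Among the lines of its library, HAM1 ranked 3rd by fold in Recovery replicate 2 and 2nd, 3rd and 4th in Control replicates 1, 2 and 3. HAM2 ranked 19th in HS replicate 3 and 9th, 6th and 5th in Control. HAM3 ranked 5th in Recovery replicate 3 and 33rd, 10th and 5th in Control. Such folds were not particular to the HAM genes. At the miR160 targets they were 4.60 to 5.53 for ARF10, 2.72 to 7.63 for ARF17 and 1.0 to 1.70 for ARF16 in Control.

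All 12 miR171a-3p lines had an Allen score of 0, a penalty for mismatches of guide and target on which 6 is the highest listed value. They also had an authors' adjusted p of 0, as had all 28 lines with that score. Among these 28 was the protease gene DEG14, at a fold of 0.0107 in HS replicate 2. At this score the p did not vary with the signal, and the 1-read lines of HAM2 in HS replicate 3 and HAM3 in Control replicate 1 carried it too. The HAM genes held 2 of 39 lines under 0.05 in Recovery and 1 of 24 in HS, against 9 of 63 in Control. Of the other 16 lines with a score of 0, 6 were in Recovery, 5 in HS and 5 in Control, and their median fold was 1.28.

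Sites named for guides of the miR170 and miR171 loci in other genes had higher Allen scores. None was named for miR171a-3p, 4 of the 15 lines were named for miR171b-3p, and the rest were named for miR170-3p, miR170-5p or miR171c-5p, which no HAM line carried. In all there were 10 such sites in 10 genes, with 3 lines in Recovery, 3 in HS and 9 in Control. Their Allen scores were 5 to 6, their folds 0.392 to 1.32 and the authors' adjusted p 0.569 to 1, and none was under 0.05. Listed in at least 2 libraries were c-NAD-MDH1, a cytosolic malate dehydrogenase, PP2-A13, a phloem protein 2-like gene, and AT4G18340. The c-NAD-MDH1 site, named for miR171c-5p, held 0.582 RPM in Recovery replicate 1 and 0.251 RPM in HS replicate 2, against 0.349 and 0.947 RPM in Control replicates 2 and 3. It did not exceed its local background in any of the 4. PP2-A13 was listed in Recovery replicate 2 and Control replicate 2, and AT4G18340 in 2 Control libraries only, each time with 1 read.

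**Figure D3:**
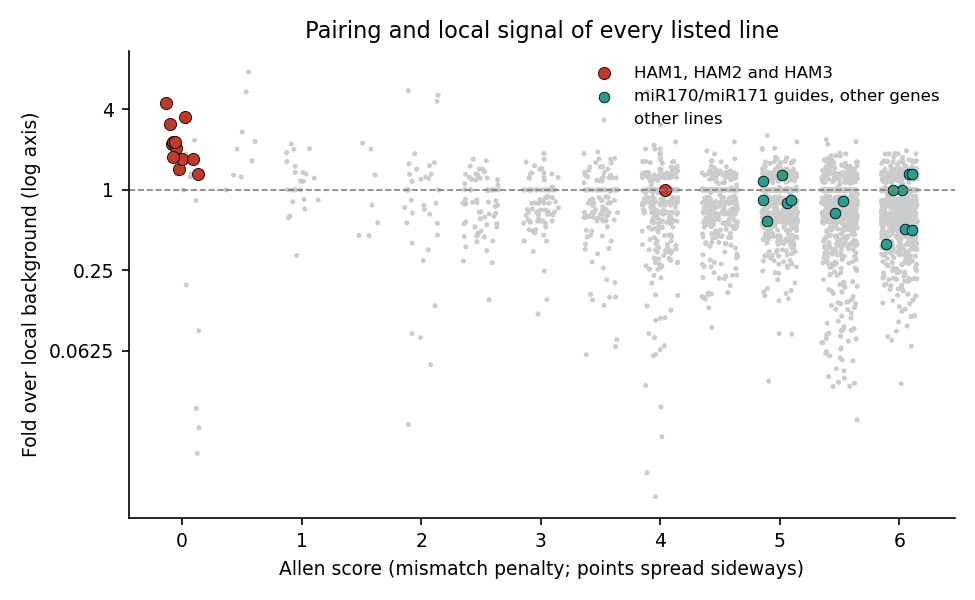
Fold over local background (vertical log axis) against the Allen score (horizontal axis, points spread sideways) for all 3041 lines, with the 13 HAM lines in red and 15 lines of miR170 and miR171 guides at other genes in green. The 12 HAM lines at a score of 0 lie at folds of 1.33 to 4.43, and the other guide lines lie at scores of 5 to 6 and folds of 0.392 to 1.32.

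The second HAM3 position, 863, was listed in 1 library, Recovery replicate 1, with 1 read (0.291 RPM). Its Allen score was 4, its local background was also 1 read, so that its fold was 1, and the authors' adjusted p was 0.356. The same library did not list position 866. With both positions summed, HAM3 held signal in 2 Recovery libraries, in 0 HS libraries and in all 3 Control libraries.

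Other genes of the meristem and of GRAS signalling gave no ends to compare. A list of 18 genes held HAM4, the WUSCHEL and WOX regulators, the CLAVATA genes, SHR, SCR, SCL3, the DELLA proteins and the protochlorophyllide reductases PORA, PORB and PORC. Of these, 0 were listed in any library. The lists hold only ends that lie at candidate miRNA sites, so this says nothing of how far these genes were expressed, and mRNA levels of the HAM genes were not analysed here.

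Targets of other conserved miRNAs were set beside the HAM genes. The miR160 targets ARF10, ARF16 and ARF17, repressors of auxin response, summed to 0.291, 0 and 1.95 RPM in Recovery and 1.02, 0.251 and 0.652 RPM in HS, against 7.72, 11.9 and 8.84 RPM in Control. Of their 3 sites limma called 2 lower in HS and 2 lower in Recovery, against 1.55% and 2.17% of all sites tested. The auxin response factors and auxin receptors under miR167 and miR393 summed to 0, 1.24 and 0.217 RPM in Recovery and 1.02, 0 and 0.652 RPM in HS, against 4.29, 5.93 and 3.47 RPM in Control. Of their 3 tested sites limma called 1 lower in each comparison with Control, beside the same shares of all sites. ARF10 and ARF16 were listed in every Control library and otherwise only in Recovery replicate 3, and ARF8 likewise with HS replicate 3. The filter favoured lower heated values at such sites, so nothing is read from these calls. The HAM genes summed to 0.291, 1.85 and 1.08 RPM in Recovery and 0, 0 and 0.326 RPM in HS, against 6.0, 3.84 and 5.05 RPM in Control. All 3 sets thus had heated libraries below all Control libraries. Among single sites tested, 10.2% lay below all Control values in HS and 15.8% in Recovery. Several of the summed sites were listed mainly in Control, so nothing is read from this order either, and no difference between the sets was tested.

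**Figure D4:**
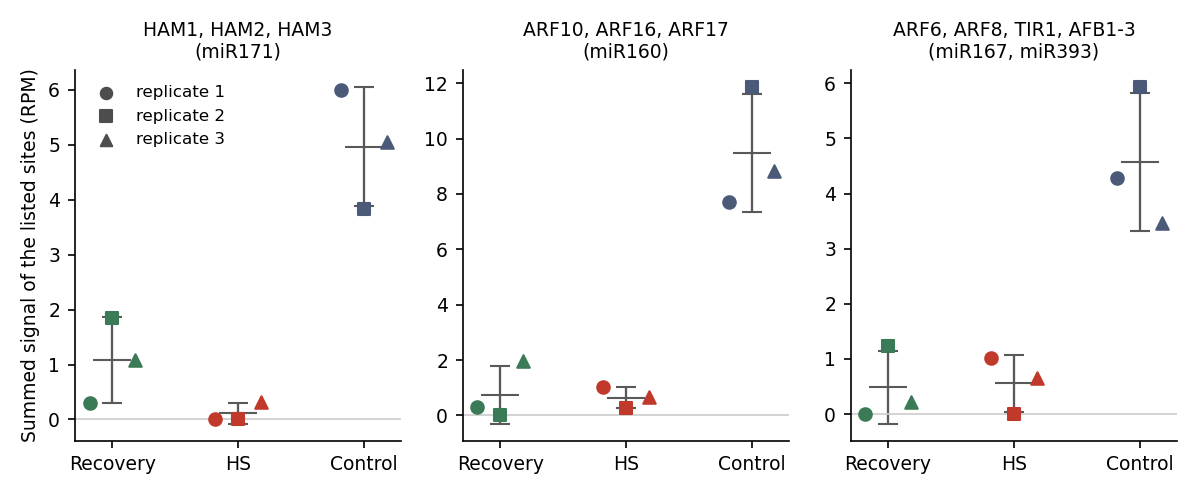
Summed slice-site signal in RPM (vertical axes, with separate scales) of the HAM genes, the miR160 targets and the miR167 and miR393 targets in Recovery, HS and Control, with points for libraries, bars for means and lines for SD (n = 3). In each panel every heated library lies below every Control library, and the HAM genes reach at most 0.326 RPM in HS. Several of the summed sites were listed mainly in Control, so nothing is read from this order.

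Across the 9 libraries, Pearson's r of log2(RPM + 1) was 0.815 between HAM1 and HAM2, 0.452 between HAM1 and HAM3 and 0.529 between HAM2 and HAM3. All sites share the depth of each library and the split into groups, so these values are descriptions only. Most alike among the 322 sites were, for HAM1, AT5G62890 (0.909), the auxin receptor AFB2 (0.899) and AT4G02725 (0.888). For HAM2 they were the expansin EXPA1 (0.958), ARF10 (0.954) and the ribosomal protein gene RPL12-A (0.917). For HAM3 they were the nitrate reductase NIA2 (0.910), AT1G52710 (0.908) and AT5G62560 (0.878). AFB2 and ARF10 are known targets of conserved miRNAs, at sites with Allen scores of 4 and 2. The other 7 were sites with Allen scores of 4 to 6, so the score does not set AFB2 apart from them.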

How the data were processed

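Lists of candidate slice sites from 9 nanoPARE libraries were used, which the authors made with the public nanoPARE pipeline on TAIR10, per the labels, without pooling replicates. For the pipeline version, the aligner and the guides searched, nothing is given in the sources used here. The authors deposited slice-site signal in RPM, a fold or ratio of RPM plus 1 over local background RPM plus 1, an adjusted p-value per site and library, an Allen score, and a position along the transcript. The lists were not filtered on the p-value.

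Groups and replicate numbers came from the sample titles. One read was set at the RPM value found most often in a library, and 89.2% to 94.4% of values came out whole, to within 0.01 read. Since fractions of reads remained, no count model was fitted. A site was a locus and position. Several lines of a site in 1 library, which describe the same end, took their largest RPM. Sites listed in at least 3 libraries (322) were fitted in limma 3.58.1 (R 4.3.3, eBayes with a trend) on log2(RPM + 1), fitting the 9 libraries together, with p adjusted over the 322 sites by Benjamini-Hochberg and a threshold of 0.05. Single values were compared by two-sided exact permutation of 3 against 3 libraries. The fit was tested on simulated data with large changes planted in both directions. In those data a site stood at 0 only where no read was drawn. The test thus says nothing of unlisted sites that held reads, and the HAM calls do not rest on it. PCR copies could not be told from molecules, and p-values measure the spread between the deposited replicates.

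The genes, lists and tests were chosen with earlier results of these data known. Named were the 3 HAM genes, sites of miR170 or miR171 guides listed in at least 2 libraries, the listed genes of the pathway and comparison lists, and for each HAM gene the 3 most alike sites; DEG14 was chosen after its values were seen. Guide and site sequences were read from the RefSeq copy of TAIR10.1. Alternatives were another pseudocount, other filters, other scalings, a replicate block, fewer libraries, unlisted sites at 1 read and sums per locus. Python 3.11.15, NumPy 2.4.6, pandas 2.3.3 and matplotlib 3.10.9 were used.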

Additional observations from a re-analysis of the deposited data

Results flagged for a closer look

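Position 863 of HAM3, paired with miR171b-3p, held 0.291 RPM in Recovery replicate 1 and was listed in no Control library, and it entered no comparison because 1 library alone listed it. The value is 1 read over a local background of 1 read.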

How the results depend on the processing

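The HAM1, HAM2 and HAM3 differences from Control kept their direction in all 18 alternatives, no HAM site passed between Recovery and HS, and a pseudocount of 0.25 RPM moved all 6 differences from Control by over 1.5 times (−3.53 to −1.99 in HS, −2.74 to −1.18 in Recovery) with no change of call. For HS against Control, HAM1 lost its call with every library scaled to 1 sum (−1.63, limma adjusted p of 0.0526) and with unlisted sites at 1 read (−1.48, 0.0788), and ranged from −1.98 to −1.72 without 1 library. HAM2 lost its call with no filter (−1.15, 0.0892), equal sums (−1.0, 0.0825), units of 1 read (−1.03, 0.0541), 2 groups in the fit (−1.15, 0.155), the replicate block (−1.15, 0.0592) and unlisted sites at 1 read (−0.90, 0.0587), and ranged from −1.29 to −0.97 without 1 library. For Recovery against Control, HAM2 lost its call with no filter (−1.29, 0.0648) and equal sums (−1.10, 0.0701), and ranged from −1.42 to −1.11 without 1 library. HAM1 ranged from −1.86 to −1.11 without 1 library and from −2.50 to −1.02 over the other alternatives. The 16 calls for HS against Control became 9 (8 higher, 1 lower) with equal sums, 10 with units of 1 read, 5 with 2 groups, 2 with unlisted sites at 1 read and 5 to 16 without 1 library. The 9 calls for Recovery against Control became 14 with a pseudocount of 0.25 RPM, 4 with no filter, 5 (3 higher, 2 lower) with equal sums, 4 with unlisted sites at 1 read and 1 to 10 without 1 library. The 3 calls for Recovery against HS became 5 with no filter, 5 with sums per locus, 0 with 2 groups, 0 with unlisted sites at 1 read and 0 to 16 without 1 library. The difference in change of HAM1 minus HAM2 in Recovery against Control, −0.07, reversed to 0.24 with a pseudocount of 0.25 RPM and to 0.084 with equal sums. The cause of these shifts was not tested. The replicate block changed no other HAM call. Deviations of libraries with the same number correlated at −0.098 to 0.099, so the numbers were not taken to pair them. HAM values rest on 1 to 8 reads, and smaller signals could not be seen at this depth.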

Other observations

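Outside the HAM genes, the squamosa promoter binding-like gene SPL2, a target of miR156 in the control of phase change, also paired with its guide at an Allen score of 0. It held 0.291 and 0.651 RPM in Recovery replicates 1 and 3 and was listed in no HS library, against 0.858, 1.40 and 0.316 RPM in Control. It was chosen after its values were seen, and Recovery and Control overlapped. SPL13A and SPL13B each held 0.464 RPM in Recovery replicate 2 and were listed at a score of 0 in no Control library. Their RPM and fold (1.44) were identical, and the RPM was not a whole multiple of that of 1 read there (0.309). Whether these genes share reads was not tested, so they are not taken as separate observations.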
